A study of Mus musculus with 3 samples.

Results

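The genes described here are the 4 receptor chains that bind interleukin-4 (IL-4) and interleukin-13 (IL-13) or pair with those that do, Il4ra, Il13ra1, Il13ra2 and Il2rg, and Stat6, the transcription factor these receptors activate. They were chosen by symbol, and all 5 were found among the 32285 genes of the mouse count tables. The data are droplet single-cell RNA counts of mouse lung from 3 libraries, 1 each labelled PD00, Model and Control, all from mice aged 3 months. PD00 is a peptidomimetic, a small molecule built to imitate a peptide, and the series names ovalbumin (OVA), an allergen used to induce airway allergy in mice. The labels do not give the strain, the number of animals per library or a dose, do not say whether the PD00 mice also received OVA, and describe the tissue of all 3 groups as healthy. With 1 library per group no difference could be tested, so each value below describes these libraries, and every interval covers counting error only.

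IL-4 and IL-13 are the main cytokines of type 2 immunity, the response that allergens and worms provoke. IL-4 is bound by IL-4Rα, the product of Il4ra, together with the common gamma chain, the product of Il2rg, which forms the type I receptor of blood cells. IL-4Rα with IL-13Rα1, the product of Il13ra1, forms the type II receptor, which binds both cytokines and is known from epithelium, fibroblasts and myeloid cells. Both receptors work through Janus kinases that phosphorylate STAT6. IL-13Rα2, the product of Il13ra2, binds IL-13 tightly and is known mainly as a decoy that removes it. The common gamma chain also serves the receptors for IL-2, IL-7, IL-9, IL-15 and IL-21.

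In the GENCODE annotation of mouse build GRCm38 (mm10), all 5 are protein-coding genes. Il4ra (ENSMUSG00000030748) lies on chromosome 7 at 125552120 to 125579474, on the plus strand. Stat6 (ENSMUSG00000002147) lies on chromosome 10 at 127642986 to 127660957, also on the plus strand, and its last 40 bases are shared with Nab2 on the other strand. The other 3 lie on the X chromosome: Il13ra1 (ENSMUSG00000017057) at 36112110 to 36171259 on the plus strand, Il13ra2 (ENSMUSG00000031289) at 147383476 to 147429192 on the minus strand and Il2rg (ENSMUSG00000031304) at 101264378 to 101268255 on the minus strand. The strand setting of the authors' counting is not given in the sources used here, so reads from the stretch that Stat6 shares with Nab2 may not be told apart. Il4ra shares 1342 bases with Gm44876 on the other strand, which had 0 UMIs over the kept cells of each library. Il2rg lies wholly, over 3878 bases, within Gm20489 on the same strand, a gene model that is not among the counted genes.

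Of the chains that bind IL-13, Il13ra1 was read in most non-lymphoid classes and Il13ra2 in very few cells, and the 250 bases upstream of their start sites are shown for that contrast. The sequences are RefSeq's for GRCm38.p6, at chrX:36111858-36112107 on the plus strand for Il13ra1 and chrX:147429193-147429442 on the minus strand for Il13ra2. Each is written 5′ to 3′ along the gene's own strand, and capitals mark every CG pair and every TATAAA.
Il13ra1: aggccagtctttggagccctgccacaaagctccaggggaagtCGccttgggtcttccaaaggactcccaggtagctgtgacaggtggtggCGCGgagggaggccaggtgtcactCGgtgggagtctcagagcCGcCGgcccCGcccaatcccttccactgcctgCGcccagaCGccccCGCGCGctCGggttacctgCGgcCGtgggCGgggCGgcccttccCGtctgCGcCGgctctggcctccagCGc
Il13ra2: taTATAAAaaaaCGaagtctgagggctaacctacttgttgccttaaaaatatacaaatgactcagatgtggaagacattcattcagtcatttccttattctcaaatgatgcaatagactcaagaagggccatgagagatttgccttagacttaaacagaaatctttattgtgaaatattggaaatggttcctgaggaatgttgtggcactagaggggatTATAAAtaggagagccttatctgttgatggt
The Il13ra1 stretch was 70.8% G or C and held 21 CG pairs, a number that 16.3% of the 32851 promoters in the table reached or passed. The Il13ra2 stretch was 36% G or C and held 1 CG pair, a number that 92.1% of promoters reached or passed, and it held TATAAA on the gene's strand with the match nearest the start beginning 31 bases before it. TATAAA on the gene's strand was found in 7.59% of all promoters and in none of the other 4 genes. The palindrome TTCNNNNGAA, the spacing known to suit STAT6, was searched on both strands and was in 0 of the 5 upstream stretches, against 5.85% of all promoters. These matches describe letters in a window and not sites that were bound. Il4ra held 17 CG pairs, Stat6 held 6 and Il2rg held 3, around a median of 6 over all promoters.

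The libraries held 9851 barcodes in PD00, 11772 in Model and 10133 in Control, of which 9647, 11537 and 9789 cells were kept in that order. The summed unique molecular identifiers (UMIs, each standing for 1 captured transcript) over kept cells were 79673537 in PD00, 81172428 in Model and 82836716 in Control. Between 31 and 43 barcodes were shared by any 2 libraries, at most 0.437% of either. Cells were assigned to classes by detected markers, and 71.3% of PD00 cells, 67.1% of Model cells and 86.0% of Control cells received a class. Cells left without a class were shallower, with a median of 1720 UMIs in PD00, 1823 in Model and 3085 in Control. For each named class but 1, the 4 or 8 markers kept aside as a check were all above the median of the other classes. The exception is a class of macrophages that carried the markers of both alveolar and interstitial macrophages, for which no separate markers were set. Fewer check markers were highest of all classes in their own class. These were 0 of 4 in alveolar macrophages, 1 of 4 in ILC2, 1 of 8 in monocytes and 2 of 4 in T cells. In NK cells, B cells, plasma cells, neutrophils and endothelial cells they were 4 of 4. In epithelial cells the leading genes were secreted products such as Sftpc and Scgb1a1 and not the gate markers. Levels below are counts per 1000000 UMIs (CPM) in the summed cells of a class in 1 library.

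Over all kept cells the receptor genes and Stat6 differed little between the libraries. A gene was counted as higher or lower when its CPM ratio was at least 1.5-fold and both sums together held at least 50 UMIs. Between Model and Control, 0 of 4 members with enough UMIs passed that fold, where 30.4% of 15512 genes did. Between PD00 and Model, 1 of 5 passed, where 11% of 15293 genes did. Between PD00 and Control, 0 of 4 passed, where 29.9% of 15361 genes did. Il4ra, the chain common to both receptors, had 82.7 CPM in PD00, 90.8 CPM in Model and 79.8 CPM in Control. Stat6 had 56.1 CPM in PD00, 51.9 CPM in Model and 68.4 CPM in Control. It was thus lowest in Model, at 0.76 times its Control level (95% interval 0.73 to 0.79). Over 6 other settings of cell filters, scaling and class weight, that ratio ran from 0.75 to 0.95. The Stat6 ratio of PD00 to Control was 0.82 and ran from 0.82 to 1.06 over those settings. The median gene was itself 0.12 lower on the log2 scale in Model than in Control. Il2rg had 70.6 CPM in PD00, 80.3 CPM in Model and 88.6 CPM in Control, while Il13ra1 had 24.1, 28.0 and 28.0 CPM in the same order. The member past the fold was Il13ra2, with 20 UMIs in PD00 and 35 in Model, a ratio of 0.58 whose interval of 0.32 to 1.04 includes equality.

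The near-equal totals came from different cells. Alveolar macrophages, the resident phagocytes of the air spaces, held 17.6% of Il4ra UMIs in PD00, 10.3% in Model and 36.0% in Control. They held 45.2% of Il13ra1 UMIs in PD00, 30.0% in Model and 65.3% in Control. For Stat6 the shares were 34.1% in PD00, 20% in Model and 65.2% in Control. These shares moved with the class itself, which made up 15.2% of kept PD00 cells, 8.05% of Model cells and 32.4% of Control cells. T cells held 26.6% of Il4ra UMIs in PD00, 27.2% in Model and 25% in Control, so that their share was alike in the libraries. Interstitial macrophages, the phagocytes of the lung tissue, held 9.2% of Il4ra UMIs in PD00 and 11.5% in Model, against 2.0% in Control.

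**Figure D1:**
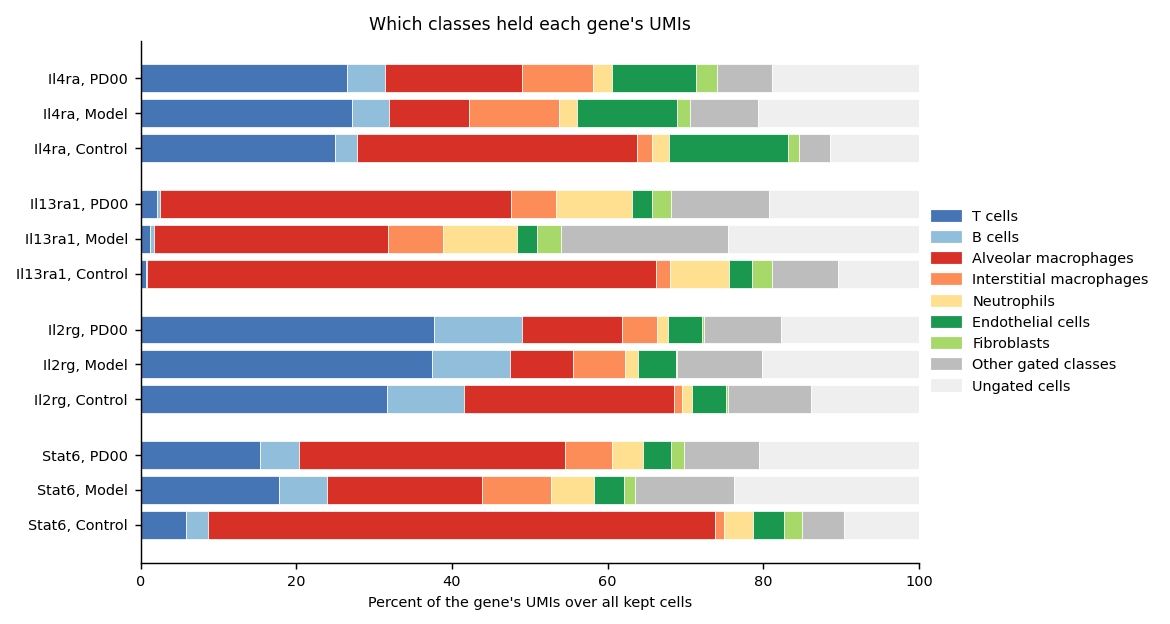
Percent of each gene's UMIs over all kept cells (x axis) that came from each class, with 1 bar per gene and library, Il13ra2 left out for its few UMIs. Alveolar macrophages hold 65.3% of Il13ra1 UMIs and 65.2% of Stat6 UMIs in Control and less in the other 2 libraries.

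Within classes the members moved about as often as other genes. Of 37 member and class pairs with enough UMIs in at least 50 cells per library, 4 were higher and 5 lower in Model than in Control, where 29.4% of all gene and class pairs passed the same fold. Between PD00 and Model 1 of 42 pairs was higher and 3 were lower, where 11.2% of all pairs passed. Between PD00 and Control 6 of 35 pairs were higher and 3 were lower, where 29.5% of all pairs passed. PD00 and Model are each set against the same Control library in these counts. Some of the pairs past the fold fell into patterns, which the plot of ratios by class shows. These were Il4ra and Il13ra1 in fibroblasts and epithelial cells, Il2rg in lymphocytes, and Il13ra1 in interstitial macrophages. Others lay outside these patterns: Il13ra1 in T cells and in macrophages with both marker sets, and Il4ra in monocytes and innate lymphoid cells. Stat6 in T cells and Il2rg in alveolar macrophages lay outside them too. The plot does not draw PD00 over Control.

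**Figure D2:**
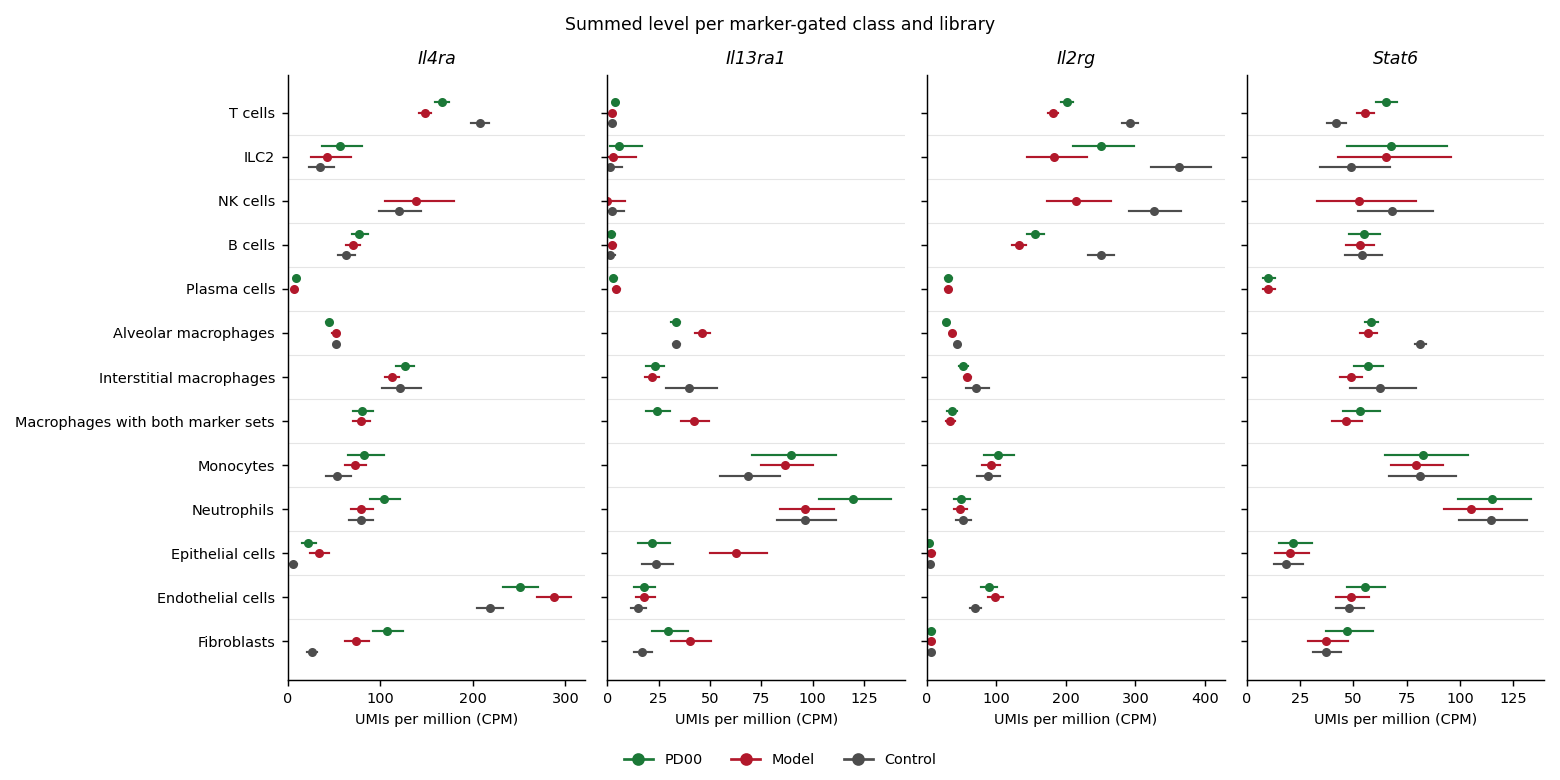
CPM (x axis) of Il4ra, Il13ra1, Il2rg and Stat6 in the larger marker-gated classes (y axis), as points with exact Poisson 95% intervals, by library, with libraries that held under 50 cells of a class left out. Among the classes drawn, Il4ra is highest in endothelial cells in all 3 libraries, Il13ra1 and Stat6 in neutrophils, and Il2rg in lymphoid classes.

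Il4ra was read in every class of at least 50 cells in all 3 libraries, and its order over those 10 classes began with endothelial cells, T cells and interstitial macrophages. Endothelial cells, which line the vessels, had 251 CPM in PD00, 287 CPM in Model and 218 CPM in Control. T cells had 166 CPM in PD00, 148 CPM in Model and 208 CPM in Control. Interstitial macrophages had 126 CPM in PD00, 112 CPM in Model and 122 CPM in Control. These 3 ranges did not overlap with one another or with the next class. Neutrophils, fibroblasts, monocytes and B cells followed with ranges that overlapped from each to the next. Alveolar macrophages, with 44.3 to 52.3 CPM, overlapped with group 2 innate lymphoid cells (ILC2), with 34.7 to 56.0 CPM, and epithelial cells came last. In endothelial cells Il4ra was 1.32-fold higher in Model than in Control (1.2 to 1.44) and 0.87 times as high in PD00 as in Model (0.79 to 0.96), both inside the 1.5-fold limit. PD00 was 1.54-fold above Control in monocytes (1.09 to 2.16) and 1.61-fold in ILC2 (0.92 to 2.83), where 13.3% and 23.7% of genes were at least 1.5-fold higher.

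Fibroblasts, the matrix-producing cells of the lung, had more Il4ra in both PD00 and Model than in Control. They had 175 UMIs and 107 CPM in PD00, 128 UMIs and 74.2 CPM in Model, and 92 UMIs and 26.1 CPM in Control. The intervals of PD00 and Model did not overlap with that of Control, which ran from 21.1 to 32.0 CPM. The Model level was 2.84-fold that of Control (2.16 to 3.76) and the PD00 level 4.11-fold (3.17 to 5.35), while PD00 was 1.45-fold above Model (1.14 to 1.83). Among all genes tested in fibroblasts, 8.65% were at least 1.5-fold higher in Model than in Control and 9.57% in PD00 than in Control. After each cell was thinned to 1000 UMIs, 7.84% of PD00 fibroblasts, 3.62% of Model fibroblasts and 2.54% of Control fibroblasts had an Il4ra UMI, against 47.8%, 42.8% and 16.1% without thinning. Markers of alveolar macrophages summed to 210 CPM in PD00 fibroblasts, 445 CPM in Model fibroblasts and 259 CPM in Control fibroblasts, with 7, 7 and 8 of 8 detected in that order. The largest part was Lpl, at 135, 323 and 150 CPM, and the other markers summed to 74.2, 122 and 108 CPM. Markers of T cells, all 8 detected in each library, summed to 28.2 CPM in PD00, 53.9 CPM in Model and 24.7 CPM in Control. In fibroblasts with no UMI of Ptprc, the gene of the pan-leukocyte protein CD45, Il4ra had 108 CPM in PD00, 71.1 CPM in Model and 28.3 CPM in Control. The ratio of Model to Control in these cells was 2.52 and that of PD00 to Control 3.82, each below its value over all fibroblasts.

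The difference was present in adventitial fibroblasts, those that surround vessels and airways. In this finer gate Il4ra had 118 UMIs and 136 CPM in 75 PD00 cells, 109 UMIs and 82.2 CPM in 101 Model cells, and 68 UMIs and 31.8 CPM in 248 Control cells. The libraries were ordered PD00, Model, Control with no overlap of their intervals. The ratio of PD00 to Model was 1.65 (1.26 to 2.16), that of Model to Control 2.59 (1.90 to 3.56) and that of PD00 to Control 4.27 (3.14 to 5.85). Genes at least 1.5-fold higher in this gate were 10.1% for PD00 over Model, 9.6% for Model over Control and 11.9% for PD00 over Control. Alveolar fibroblasts, those of the gas-exchange walls, had 73.1 CPM in 63 PD00 cells, 35.3 CPM in 24 Model cells and 17.3 CPM in 113 Control cells. The adventitial share of fibroblasts was 47.8% in PD00, 73.2% in Model and 61.5% in Control, and its part in the Il4ra levels of the whole class was not tested.

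**Figure D3:**
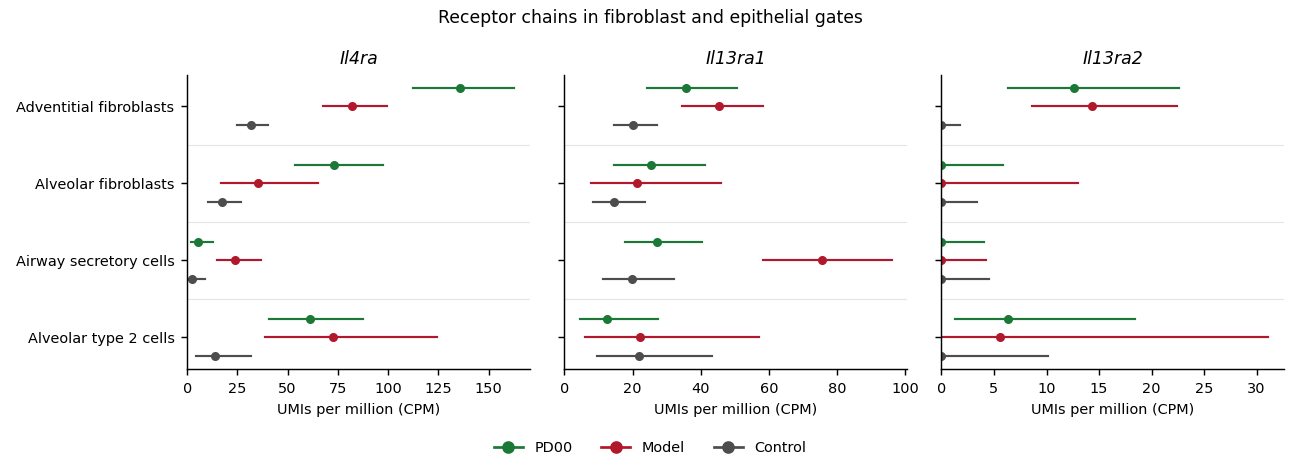
CPM (x axis) of Il4ra, Il13ra1 and Il13ra2 in 2 fibroblast and 2 epithelial gates (y axis) by library, as points with exact Poisson 95% intervals, some gates holding fewer than 50 cells. In adventitial fibroblasts Il4ra is 136 CPM in PD00, 82.2 CPM in Model and 31.8 CPM in Control, while Il13ra2 has UMIs in PD00 and Model and none in Control.

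Epithelial cells had few Il4ra UMIs, 34 in PD00, 45 in Model and 9 in Control, or 21.8, 33.5 and 5.41 CPM in that order. The Model level was 6.20-fold that of Control (2.99 to 14.4), and the ratio of PD00 to Model was 0.65 (0.40 to 1.04), an interval that includes equality. This class was small, with 69 cells in PD00, 79 in Model and 94 in Control, and 46.4% of all genes tested in it were at least 1.5-fold higher in Model than in Control. The class's median gene was 0.54 higher on the log2 scale in Model than in Control and 0.37 lower in PD00 than in Model. With scaling by the median of ratios the Il4ra ratio of Model to Control was 4.29 and that of PD00 to Model 0.85, which is inside the fold. In epithelial cells with no Ptprc UMI, Il4ra was 13.5 CPM in PD00, 26.1 CPM in Model and 5.93 CPM in Control. Those with a Ptprc UMI held 18 of its UMIs in 15 PD00 cells, 20 in 14 Model cells and 2 in 19 Control cells. The part of leukocyte RNA in these levels was not tested. Alveolar type 2 cells, the surfactant makers, had 29 UMIs of Il4ra in 28 PD00 cells, 13 UMIs in 7 Model cells and 5 UMIs in 27 Control cells. They made up 40.6% of epithelial cells in PD00, 8.86% in Model and 28.7% in Control.

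T-cell subsets differed in Il4ra within each library. T cells with Il1rl1, which encodes the IL-33 receptor ST2 and marks type 2 helper cells, had 83.2 CPM in PD00, 69.6 CPM in Model and 99.3 CPM in Control, where only 20 such cells were found. T cells outside the ST2, Foxp3 and CD8 gates had 202 CPM in PD00, 177 CPM in Model and 227 CPM in Control. In each of the 3 libraries the ST2 T cells were thus the lower, and their intervals did not overlap with those of the other T cells. ILC2, which share ST2 and type 2 cytokines with those T cells, had lower values still, 56.0 CPM in PD00, 42.7 CPM in Model and 34.7 CPM in Control. These values rest on only 29, 17 and 27 UMIs in the same order. ST2 T cells made up 31.6% of T cells in PD00, 22.4% in Model and 1.22% in Control. CD8 T cells, the cytotoxic lineage, had 269 CPM in PD00, 167 CPM in Model and 187 CPM in Control, while the ratio of PD00 to Model was 1.61 (1.36 to 1.90), where 7.03% of genes in this gate were at least 1.5-fold higher.

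**Figure D4:**
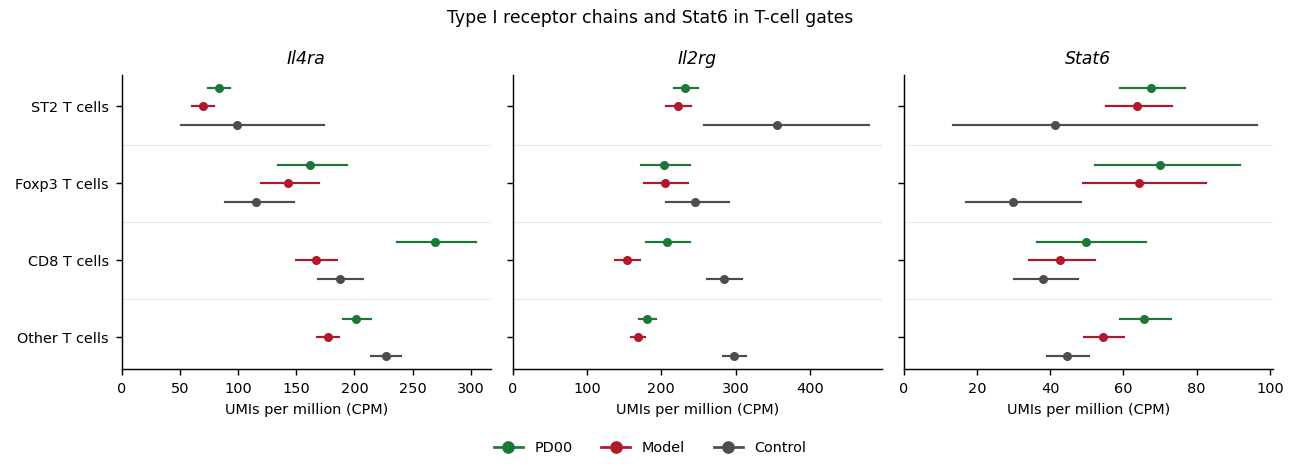
CPM (x axis) of Il4ra, Il2rg and Stat6 in 4 T-cell gates (y axis) by library, as points with exact Poisson 95% intervals. Il4ra is lower in ST2 T cells than in the other T cells of each library, and Stat6 in Foxp3 T cells is 70.1 CPM in PD00, 64.2 CPM in Model and 29.8 CPM in Control.

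Il13ra1 was a gene of myeloid and structural cells. Neutrophils had 120 CPM in PD00, 96.4 CPM in Model and 96.1 CPM in Control, the highest of the 10 classes in each library. Monocytes followed with 89.2 CPM in PD00, 86.7 CPM in Model and 68.3 CPM in Control. T cells had 3.80 CPM in PD00, 2.0 CPM in Model and 2.01 CPM in Control, while B cells, which should lack the gene, had 1.95, 2.43 and 1.39 CPM in the same order. Il13ra1 UMIs were found in 1.68% of PD00 T cells, 1.01% of Model T cells and 0.856% of Control T cells, at median depths of 4251, 4473 and 4338 UMIs, and in 1.07% of PD00 B cells, 1.41% of Model B cells and 0.512% of Control B cells, at 5175, 4502 and 3178 UMIs. The share of T cells was above that of B cells in PD00 and Control and below it in Model. At these low levels the ratios of T cells past 1.5-fold, 1.90 for PD00 over Model (40 against 27 UMIs) and 1.89 for PD00 over Control (40 against 16 UMIs), are given as values only.

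In alveolar macrophages Il13ra1 was 33.2 CPM in PD00, 46.3 CPM in Model and 33.4 CPM in Control. Model stood above the other 2, by 1.38-fold over Control (1.26 to 1.52), while the ratio of PD00 to Model was 0.72 (0.65 to 0.80). Neither passed the 1.5-fold limit. Interstitial macrophages had 22.9 CPM in PD00, 21.5 CPM in Model and 39.6 CPM in Control, so that Model was at 0.54 times the Control level (0.39 to 0.78) and PD00 at 0.58 times (0.40 to 0.84). In this class 17% of genes were at least 1.5-fold lower in Model than in Control and 14.5% in PD00 than in Control. Interstitial macrophages numbered 483 in PD00, 655 in Model and 190 in Control, with median depths of 8363, 10037 and 5280 UMIs. They held 110, 163 and 43 UMIs of Il13ra1 in the same order. Neutrophil markers in this class summed to 122 CPM in PD00, 136 CPM in Model and 367 CPM in Control. Without the highest marker of each library the sums were 61.1, 69.9 and 146 CPM. Their part in the Il13ra1 levels was not tested. Macrophages with both marker sets, 171 cells in PD00 and 248 in Model, had 24.3 CPM in PD00 and 42.2 CPM in Model, a ratio of 0.58 (0.43 to 0.77), where 4.36% of genes were at least 1.5-fold lower.

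Fibroblasts had 48 UMIs and 29.4 CPM of Il13ra1 in PD00, 69 UMIs and 40.0 CPM in Model, and 60 UMIs and 17.0 CPM in Control. The Model level was 2.35-fold that of Control (1.64 to 3.38) and the PD00 level 1.73-fold (1.16 to 2.57), so both chains of the type II receptor were higher than in Control. Cells with UMIs of both chains were 14.6% of PD00 fibroblasts, 17.4% of Model fibroblasts and 1.99% of Control fibroblasts. At 1000 UMIs per cell only 1 of 153 PD00 fibroblasts, 0 of 138 Model fibroblasts and 0 of 394 Control fibroblasts had both.

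Epithelial Il13ra1 was highest in Model. It had 34 UMIs and 21.8 CPM in PD00, 84 UMIs and 62.6 CPM in Model, and 39 UMIs and 23.4 CPM in Control. The ratio of Model to Control was 2.67 (1.81 to 4.01) and that of PD00 to Model 0.35 (0.23 to 0.52), in a class where 46.4% of genes were at least 1.5-fold higher in Model than in Control and 32.8% at least 1.5-fold lower in PD00 than in Model. Airway secretory cells, the club and goblet cells of the airway lining, had 27.3 CPM in 32 PD00 cells, 75.4 CPM in 52 Model cells and 19.7 CPM in 35 Control cells. The Model interval, 58.3 to 96 CPM, lay above both others. These cells made up 46.4% of epithelial cells in PD00, 65.8% in Model and 37.2% in Control. Neutrophil markers summed to 360 CPM in PD00 epithelial cells, 517 CPM in Model epithelial cells and 9.01 CPM in Control epithelial cells, with 6 of 8 detected and Ly6g and Mmp8 at 0 in each library. Nearly all of this in PD00 and Model was Retnlg, at 352 and 505 CPM, and the other 7 summed to 7.69 CPM in PD00, 12.7 CPM in Model and 6.01 CPM in Control. In epithelial cells with no Ptprc UMI, Il13ra1 was 21.2 CPM in PD00, 70.1 CPM in Model and 20.3 CPM in Control. Model was the highest there too.

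**Figure D5:**
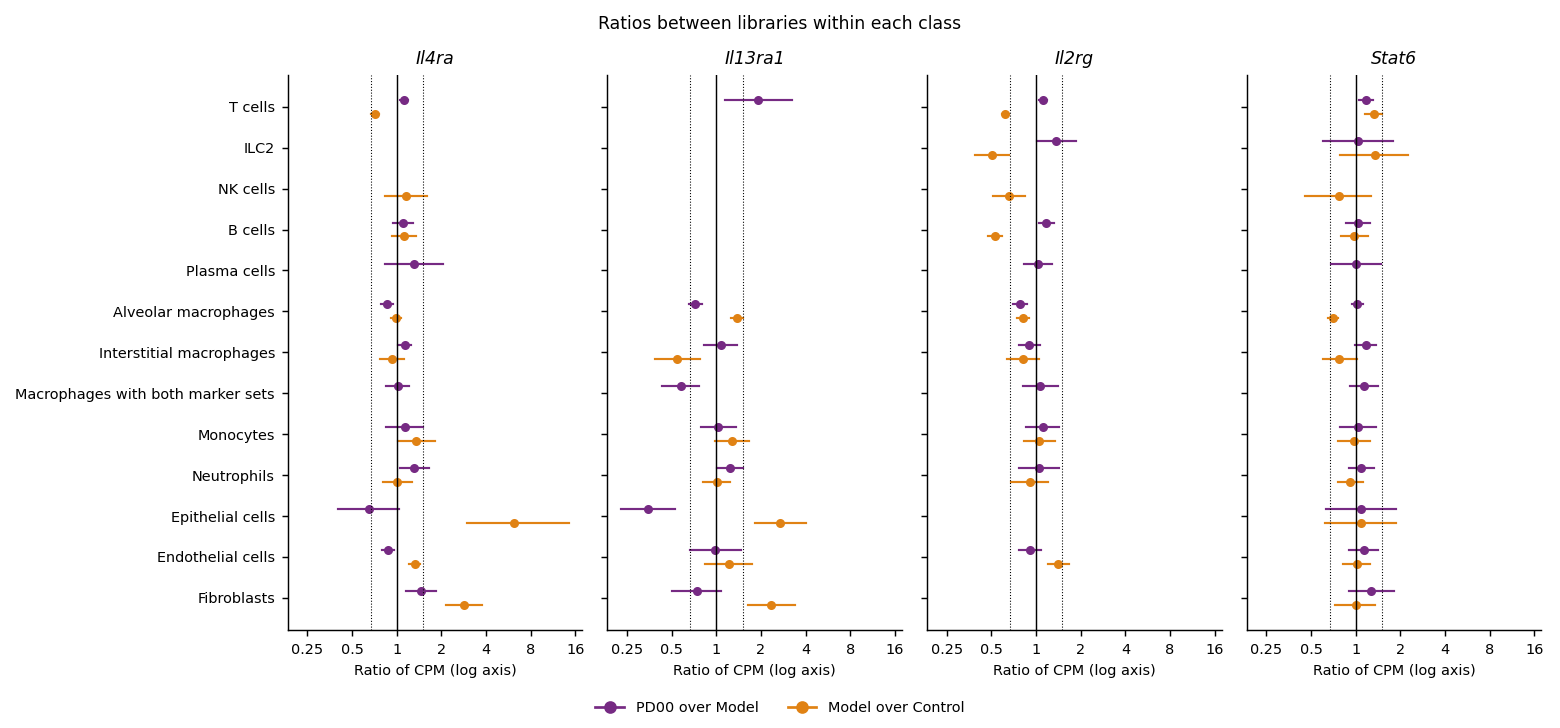
Ratio of CPM (x axis, log scale) within each class (y axis) for PD00 over Model and Model over Control, as points with exact 95% intervals, for pairs with at least 50 UMIs, and with dotted lines at 1.5-fold either way. Il2rg lies below the lower line for Model over Control in T cells, ILC2, NK cells and B cells, and Il4ra and Il13ra1 lie above the upper line in epithelial cells and fibroblasts.

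Il13ra2, the decoy chain, was read only in PD00 and Model. It had 20 UMIs in 12 cells in PD00, 35 UMIs in 19 cells in Model and 0 UMIs in Control, which allows up to 0.0362 CPM there if 3 counts are taken as the limit. With Control set at that limit the ratio was 11.9 for Model over Control, with a lower interval end of 9.18. For PD00 over Control it was 6.93, with a lower end of 5.13. Both comparisons held fewer than the 50 UMIs needed for a call. Fibroblasts held 11 of the UMIs in PD00 and 19 in Model. All of these were in adventitial fibroblasts, in 7 of 75 PD00 cells and 9 of 101 Model cells, against 0 of 248 Control cells. The highest single cell held 4 UMIs in PD00 and 6 in Model, so the level rests on a handful of cells. Outside fibroblasts, Model had 7 UMIs in 4 alveolar macrophages and PD00 had 5 UMIs in 3 endothelial cells, with 3 UMIs in PD00 epithelial cells and 1 UMI in Model epithelial cells. All of these epithelial UMIs were in cells that also held a Ptprc UMI. Cells without a class held 1 UMI in PD00 and 8 UMIs in Model. T cells, B cells and neutrophils had 0 UMIs in each library.

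Among the 10 classes Il2rg was highest in ILC2, T cells and B cells, and its level there was lower in Model than in Control. Monocytes had 87.4 to 102 CPM and interstitial macrophages 52.2 to 71.0 CPM. ILC2 had 251 CPM in PD00, 183 CPM in Model and 363 CPM in Control. T cells had 202 CPM in PD00, 181 CPM in Model and 292 CPM in Control. B cells had 156 CPM in PD00, 133 CPM in Model and 250 CPM in Control. In each of these 3 classes PD00 lay between Model and Control. The ratio of Model to Control was 0.50 in ILC2 (0.38 to 0.66), 0.62 in T cells (0.59 to 0.66) and 0.53 in B cells (0.48 to 0.59). Natural killer (NK) cells, which depend on IL-15 through this chain, had 215 CPM in 115 Model cells and 326 CPM in 300 Control cells, a ratio of 0.66 (0.51 to 0.84), and only 35 NK cells were found in PD00. Genes at least 1.5-fold lower in Model than in Control were 8.69% of those tested in T cells, 8.7% in B cells, 18% in ILC2 and 15.6% in NK cells.

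The ratio of PD00 to Model was 1.11 in T cells (1.05 to 1.18) and 1.37 in ILC2 (1.02 to 1.85), both inside the fold. PD00 was at 0.62 times the Control level in B cells (0.56 to 0.69) and at 0.63 times in alveolar macrophages (0.58 to 0.69), where 8.46% and 22.3% of genes were at least 1.5-fold lower. At 1000 UMIs per cell, Il2rg was found in 18.2% of PD00 T cells, 16.9% of Model T cells and 24.7% of Control T cells, against 53.8%, 54.5% and 67.6% without thinning. Foxp3 T cells, the regulatory lineage, had 204 CPM in PD00, 205 CPM in Model and 246 CPM in Control. Their Model to Control ratio of 0.83 had an interval of 0.67 to 1.05. CD8 T cells had 207 CPM in PD00, 154 CPM in Model and 285 CPM in Control, a Model to Control ratio of 0.54 (0.47 to 0.62), where 7.37% of genes were at least 1.5-fold lower.

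Outside leukocytes, Il2rg was near background in fibroblasts and epithelial cells but not in endothelial cells. Endothelial cells had 88.7 CPM in PD00, 97.9 CPM in Model and 69.2 CPM in Control, whereas fibroblasts had 5.22 to 6.13 CPM and epithelial cells 3.21 to 5.22 CPM. An Il2rg UMI was found in 43.3% of PD00 endothelial cells, 44.2% of Model cells and 41.2% of Control cells, at median depths of 6879, 6558 and 7208 UMIs, against 5.10%, 5.80% and 3.97% of fibroblasts at 9156, 11934 and 8652 UMIs. Endothelial cells with no Ptprc UMI, 76.4% of the class in PD00, 77.6% in Model and 80.1% in Control, had 86.1, 102 and 66.5 CPM of Il2rg in the same order. These values were below those of the whole class in PD00 and Control and above it in Model. T-cell markers summed to 60.0 CPM in PD00 endothelial cells, 43.4 CPM in Model and 34.6 CPM in Control, with 8 of 8 detected in each library. Both chains of the type I receptor were found in 36.2% of PD00 endothelial cells, 39.1% of Model cells and 33.5% of Control cells, and in 24.2% of PD00 T cells, 25.6% of Model T cells and 42.0% of Control T cells. At 1000 UMIs per cell these shares were 1.24%, 2.74% and 1.07% in endothelial cells and 3.08%, 1.94% and 4.60% in T cells.

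Stat6 was read in all 10 classes with at least 50 cells in each library, and among these it was highest in neutrophils. Eosinophils, of which Control held 1 cell, had 136 CPM from 16 UMIs in PD00 and 103 CPM from 16 UMIs in Model. Neutrophils had 115 CPM in PD00, 105 CPM in Model and 115 CPM in Control, while monocytes had 82.5, 79.2 and 81.3 CPM in the same order. Neutrophils stood apart from the rest of the 10. Monocytes lay above ILC2, the next in order, but their range overlapped with that of alveolar macrophages. From ILC2 down to endothelial cells, the range of each class overlapped with the next. Epithelial cells were lowest, with 21.8 CPM in PD00, 20.1 CPM in Model and 18.6 CPM in Control. Alveolar macrophages had 58.3 CPM in PD00, 56.9 CPM in Model and 81.3 CPM in Control, so that Model was at 0.70 times the Control level (0.65 to 0.75) and PD00 at 0.72 times (0.68 to 0.76), both inside the fold. The median gene of this class was 0.21 lower on the log2 scale in Model than in Control and 0.18 lower in PD00 than in Control.

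T cells went the other way. Stat6 was 65.2 CPM in PD00 T cells, 55.5 CPM in Model T cells and 41.9 CPM in Control T cells, and no pair of intervals overlapped. PD00 was 1.55-fold above Control (1.36 to 1.78), where 25.3% of genes tested in T cells were at least 1.5-fold higher and the median gene was 0.22 higher on the log2 scale. With scaling by the median of ratios the Stat6 ratio was 1.38, inside the fold. The Model to Control ratio was 1.32 (1.16 to 1.51). Foxp3 T cells had 52 UMIs and 70.1 CPM in PD00, 61 UMIs and 64.2 CPM in Model, and 16 UMIs and 29.8 CPM in Control, and the median gene of this gate differed between Model and Control by 0.01 on the log2 scale. Their ratios were 2.35 for PD00 over Control (1.32 to 4.41) and 2.15 for Model over Control (1.23 to 4.0). In this gate 17.6% of genes were at least 1.5-fold higher in PD00 than in Control and 15.9% in Model than in Control.

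Both ligands were higher in Model than in Control over all kept cells: Il4 had 365 UMIs in PD00, 386 in Model and 52 in Control, and Il13 had 551, 806 and 39 UMIs in the same order. The Model to Control ratio was 7.58 for Il4 (5.66 to 10.3) and 21.1 for Il13 (15.3 to 29.9). Il13 was at 0.70 times the Model level in PD00 (0.62 to 0.78) and Il4 at 0.96 times (0.83 to 1.11). Of 6 other receptor chains that pair with the common gamma chain, 3 were higher in Model than in Control, Il7r (2.86-fold), Il2ra (2.20-fold) and Il9r (3.62-fold). Of 4 Janus kinases 2 were higher, Jak2 (2.15-fold) and Jak3 (2.14-fold), whereas Jak1, the kinase bound by IL-4Rα, was at 0.96 times the Control level and Tyk2 at 0.93 times. Of 6 other STAT factors 1 was higher, Stat2 (1.52-fold). Of 13 adaptors and inhibitors, 2 were higher, Socs1 (1.71-fold) and Socs2 (1.95-fold), both feedback inhibitors of Janus kinases, and 1 was lower, the adaptor gene Irs1 (0.65 times). Across all genes 12.7% were higher and 17.7% lower in that comparison.

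Of 18 genes known to respond to IL-4 or IL-13, 16 were higher and 1 was lower in Model than in Control, with a median log2 ratio of 4.36 against -0.12 over all genes. Between PD00 and Model, 0 of the 18 were higher and 11 were lower, with a median log2 ratio of -0.66 against 0.00 over all genes, where 7.43% of genes were lower. Chil4, a chitinase-like protein, had 4287 UMIs in PD00, 32809 in Model and 0 in Control. Clca1, which goblet cells secrete, had 15231 UMIs in PD00, 36419 in Model and 0 in Control. Muc5ac, the inducible airway mucin, had 301 UMIs in PD00, 1323 in Model and 2 in Control. These 3 epithelial genes were highest in Model. Among macrophage genes, Arg1 was 204 CPM in PD00, 257 CPM in Model and 2.35 CPM in Control, while Ccl24 was 115 CPM in PD00, 203 CPM in Model and 4.41 CPM in Control. Chil3 was 38793 CPM in PD00, 27683 CPM in Model and 1133 CPM in Control. Chil3 was thus the higher in PD00, by 1.40-fold over Model. The gene counted as lower in Model than in Control was Mrc1, which is also a gate marker of alveolar macrophages. Mrc1 was at 423 CPM in PD00, 377 CPM in Model and 670 CPM in Control. Fcer2a was below Control too, at 0.75 times in Model (0.69 to 0.83), inside the fold, and at 0.48 times in PD00 (0.43 to 0.54). In sums over all cells, fewer cells of a type and less RNA per cell cannot be told apart. Within alveolar macrophages, the list genes with enough UMIs had a median log2 ratio of PD00 to Model of -0.82, against 0.05 over all genes. It was -0.75 in interstitial macrophages (0.04 over all genes) and -1.03 in epithelial cells (-0.37). The median was 0.13 in T cells (0.08), 0.12 in ILC2 (0.09) and 0.51 in eosinophils (0.00). For Model to Control it was 5.27 in T cells, and the part of RNA from other cells was not tested.

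The genes whose levels over class and library sums were most like each member were named by Pearson's r of log2(CPM + 10) over 39 sums from 15 classes, among 7037 genes. For Il4ra they were Agfg1 (r = 0.82), Atp1b3 (0.79) and Elk3 (0.78). For Il13ra1 they were Nfe2l2 (0.86), Prdx5 (0.84) and Svip (0.84). For Il2rg they were Stk4 (0.90), Ptpn18 (0.88) and Ttc14 (0.87), and for Stat6 they were Kdm6b (0.91), Rap1b (0.91) and Mapk14 (0.90). For Il13ra2, whose sums are nearly all at or near 0, they were Tfpi2 (0.93), Col6a5 (0.93) and Cyp1b1 (0.90). Sums of 1 library share its depth and free RNA, so these values describe likeness and carry no test.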

How the data were processed

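Per the labels, lung cells of 3 libraries were prepared with a 10x 3′ v3 kit. The authors deposited whole-number UMI counts per gene and barcode. The submitters' processing notes name Cell Ranger 3.1.0, STAR and mm10, whereas per the file headers the matrices came from cellranger 5.0.0. Barcodes under 500 UMIs or 200 detected genes, or with over 20% of their UMIs mitochondrial, were dropped. A cell received the class with the most detected of its 8 markers, if at least 3 and at least 2 more than any other class. This scoring rule was chosen after seeing the data. T cells also needed 2 of Cd3d, Cd3e, Cd3g and Trac, and ILC2 and NK cells could have none of them. No doublet caller was run, and cells whose best 2 classes lay closer than that margin stayed out, apart from the following. Cells between alveolar and interstitial macrophages formed the class with both marker sets. Those between classical and nonclassical monocytes, which had separate marker lists, were counted as monocytes. UMIs were summed per class and library with numpy 2.4.6. Ratios carry exact conditional binomial intervals, levels exact Poisson intervals and shares exact binomial (Clopper-Pearson) intervals, all at 95% and computed with scipy 1.17.1. PCR was corrected by UMIs. The members, the 6 gene lists and the comparisons were chosen with earlier results of these data known. Named genes were the 5 members, the list genes and, for each member, the 3 most alike. The interval and ratio calculations were tested on simulated data.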

Additional observations from a re-analysis of the deposited data

How the results depend on the processing

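With 1 library per group no replicate could be left out, and no paired analysis was possible because each group has a single library. The count of members past 1.5-fold over all kept cells was 1 for Model against Control and 1 for PD00 against Control with a minimum of 1 UMI, the added gene being Il13ra2. For PD00 against Model that count was 0 with a minimum of 200 UMIs, 0 when the whole interval had to pass the fold and 0 when classes had equal weight. The count of member and class pairs was 15 for Model against Control and 11 for PD00 against Model with a minimum of 1 UMI. With a minimum of 200 UMIs it was 1 for PD00 against Model and 4 for PD00 against Control. When the whole interval had to pass the fold it was 1 for PD00 against Model and 1 for PD00 against Control. Other settings, among them cell filters, stricter and looser gates and scalings, left these counts within 1.5 times. Leaving out structural cells with a Ptprc UMI, chosen after seeing the data, gave 9, 4 and 9 pairs. No called ratio changed direction under any setting run. The calls that fell inside the fold under another scaling were Il4ra in epithelial cells (PD00 against Model, 0.85 at the most), Il4ra in monocytes and ILC2, Il2rg in alveolar macrophages and Stat6 in T cells (all PD00 against Control). Il13ra2 and the epithelial gates rest on few UMIs and cells, and differences there are limited by depth.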
